A study of Mus musculus with 6 samples.

Results

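The genes described here are 9 members of the pathway that runs from phosphoinositide 3-kinase (PI3K) through the kinase AKT to the FOXO transcription factors, measured in sorted germinal center (GC) B cells. They were chosen by name: *Foxo1*, *Foxo3*, *Foxp1*, *Inpp5d*, *Pik3cd*, *Pik3r1*, *Pik3ip1*, *Akt1* and *Akt2*. All 9 were found by their Entrez identifiers among the 27179 genes of the count table, and all 9 passed the expression limit that left 11005 genes to be tested. The study set wild-type (WT) C57BL/6 mice against mice of that background that lack the receptor for interleukin-21 (*Il21r*-/-), a cytokine made by T follicular helper cells. Mice of both genotypes were immunized with the hapten-protein conjugate NP-KLH in alum, and NP-binding, IgG1+ GC B cells were sorted from the spleen on days 7, 10 and 14, which gave 1 RNA-seq library per genotype and day and 6 in all. The submitters describe each sample as an independent mouse, whereas the methods speak of a larger number of mice per genotype from 2 immunizations. The sort of day 7 is described as starting from 3 mice of each genotype, and how many mice stand behind the libraries of days 10 and 14 is not given in the sources used here. According to the methods, nearly all experiments used irradiated hosts that carried WT or *Il21r*-/- bone marrow. There *Il21r* is missing from all blood cells derived from that marrow, T cells included, and not from B cells alone. The ages given cover the whole study and not these libraries. With 1 library per genotype and day, p-values over 3 days measure the spread between 3 libraries per genotype around a straight line in time.

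PI3K phosphorylates a membrane lipid in response to the B cell receptor and cytokine receptors, and the product draws AKT to the membrane, where it is activated. Lipid phosphatases such as SHIP-1 remove or convert the product. Active AKT phosphorylates FOXO proteins, which then leave the nucleus, so FOXO activity is set largely by phosphorylation and not by the amount of mRNA. In the GC, FOXO1 is known for its part in the dark zone (DZ), the compartment in which B cells divide and mutate, while PI3K signaling is known mainly from the light zone (LZ), where B cells are selected.

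The libraries held between 21353438 and 27435124 reads on genes. *Il21r* itself (Entrez 60504) had 346, 263 and 247 CPM (read counts scaled to library size) in WT on days 7, 10 and 14, and 106, 128 and 113 CPM in *Il21r*-/-. It was higher in all 3 WT libraries, as the labels require, and reads remained in *Il21r*-/-. Which exons the allele lacks is not given in the sources used here. Of the lineages outside the gate, 7 of 8 T cell markers, among them *Cd3e*, *Cd4* and *Trac*, lay below the expression limit with at most 0.991 CPM in a library, and the exception was *Lck*, so that the list summed to 81.9 to 122 CPM. The 5 red cell markers in the table summed to 4.80 to 33.6 CPM. The plasma cell marker *Sdc1* was below the limit, while the 6 plasma cell markers together, which include the joining chain gene *Jchain*, summed to 3580 to 4060 CPM in WT and 3970 to 5260 CPM in *Il21r*-/-. GC markers were high, with a summed level of 7370 to 8410 CPM in WT and 7310 to 8700 CPM in *Il21r*-/-. The 8 LZ markers summed to 866 to 1160 CPM in WT and 1610 to 1940 CPM in *Il21r*-/-, without overlap, and 4 of the 8 were higher in *Il21r*-/- (adjusted p under 0.05) and none in WT. The 7 DZ markers, which include *Foxo1*, summed to 2080 to 2270 CPM in WT and 1830 to 1910 CPM in *Il21r*-/-, also without overlap. None of the 7 passed the test. The 8 markers of B cells outside the GC, which include *S1pr1*, summed to 559 to 1220 CPM in WT and 934 to 1450 CPM in *Il21r*-/-. Those ranges overlapped, but the sum was higher in *Il21r*-/- on each day (1450 against 1220 CPM on day 7, 1360 against 760 on day 10 and 934 against 559 on day 14), and 4 of the 8 were higher in *Il21r*-/- and 1 in WT. The 7 myeloid markers summed to 8.42 to 14.2 CPM in WT and 12.2 to 19.9 CPM in *Il21r*-/-, with *Itgam*, *S100a8* and *S100a9* below the limit. The myeloid and plasma cell sums were likewise higher in *Il21r*-/- on each day. In sorted but mixed cells, a larger share of cells that carry an mRNA and more of that mRNA per cell cannot be told apart.

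Of the 9 genes, *Foxo3* alone differed between the genotypes over 3 days: it was higher in *Il21r*-/- on each day. *Pik3cd* and *Akt1* had higher values in WT, and *Foxp1* and *Pik3ip1* higher values in *Il21r*-/-, on each of the 3 days. These 4 did not pass with a linear day term and passed when each day was given its own mean. *Foxo1*, *Pik3r1*, *Inpp5d* and *Akt2* passed in neither fit. The test was edgeR's quasi-likelihood test with Benjamini-Hochberg adjustment over the 11005 genes and a threshold of 0.05, and a positive log2 fold change means higher in WT. By that test 1 of 9 members was called, against 5.92% of all genes tested. With day as a block, so that each WT library was set against the *Il21r*-/- library of its day, 5 of 9 were called, against 22.9% of all genes.

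**Figure D1:**
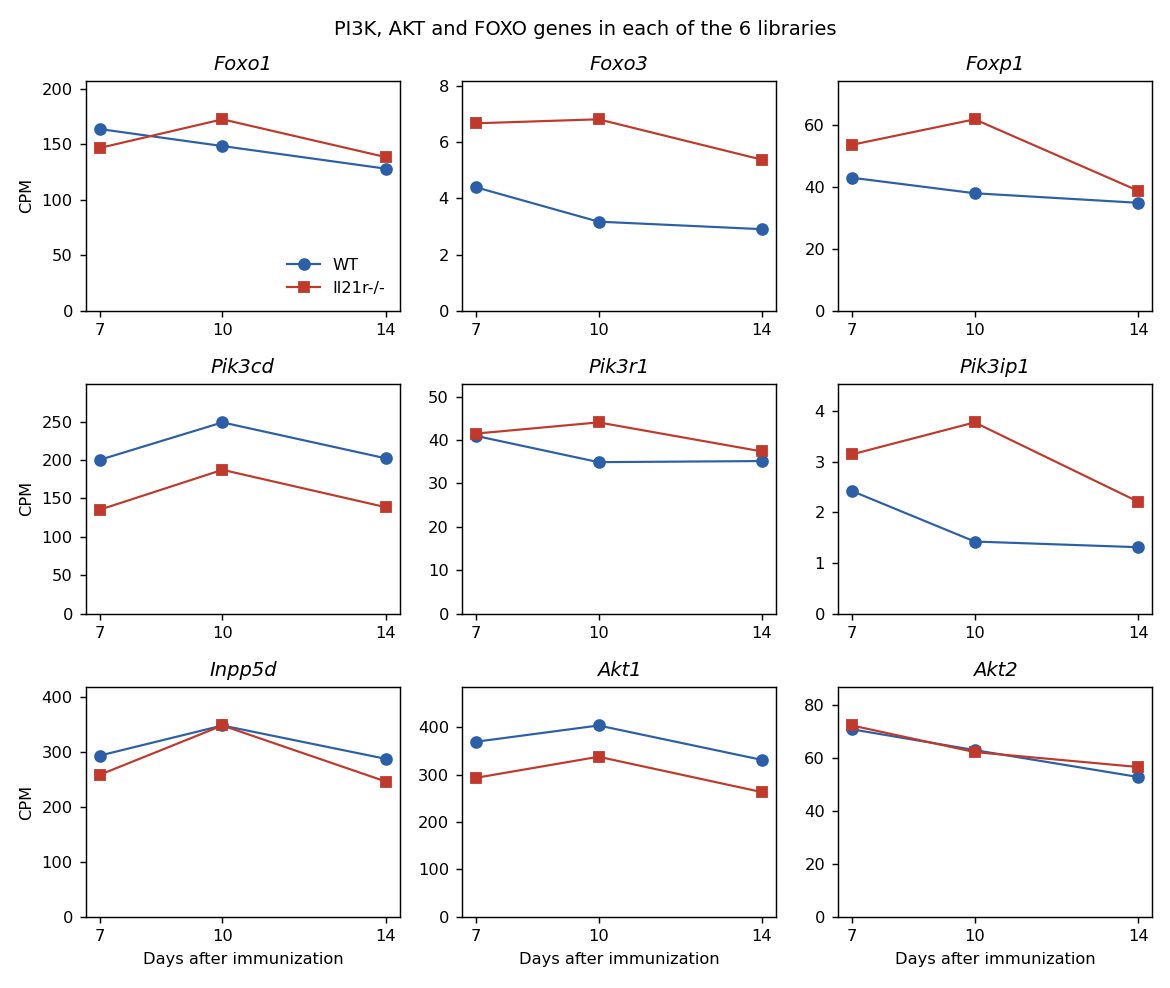
Each panel plots the level of a gene in CPM (vertical axis, from 0) against the day after immunization, with 1 point per library, circles for WT and squares for *Il21r*-/-, and lines that only join libraries of a genotype. *Foxo3* lay higher in the 3 *Il21r*-/- libraries and *Pik3cd* lay higher in WT on each day, while the lines of *Foxo1* and *Akt2* crossed.

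*Foxo3* (Entrez 56484, GRCm38 chromosome 10, 42181845 to 42276695) encodes a FOXO factor known for arresting the cell cycle and promoting cell death. It had 4.40, 3.17 and 2.90 CPM in WT on days 7, 10 and 14 and 6.68, 6.82 and 5.38 CPM in *Il21r*-/-. All 3 *Il21r*-/- libraries lay above all 3 WT libraries, as they did for 10.0% of the genes tested. Behind these levels stand 120, 78 and 62 reads in WT and 153, 179 and 134 reads in *Il21r*-/-, so *Foxo3* was a gene of low abundance. The level was 1.81-fold higher in *Il21r*-/- over 3 days (log2 fold change −0.86 with a standard error, SE, of 0.17, and adjusted p = 0.0242 by edgeR's quasi-likelihood test). The call did not hold without the *Il21r*-/- library of day 7 (−0.94, adjusted p = 0.0508), the WT library of day 10 (−0.79, adjusted p = 0.104), the WT library of day 14 (−0.85, adjusted p = 0.178) or the *Il21r*-/- library of day 14 (−0.84, adjusted p = 0.105), and the direction stayed the same in each. The summed levels of LZ markers and, within each day, of markers of non-GC B, plasma and myeloid cells were higher in *Il21r*-/- as *Foxo3* was, and their part in this difference was not tested.

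On single days, which compare 1 library with 1 library and take the spread from the 6 libraries, *Foxo3* differed by −0.60 on day 7 (SE 0.33, adjusted p = 0.999, edgeR's likelihood ratio test), −1.10 on day 10 (SE 0.35, adjusted p = 0.0455) and −0.89 on day 14 (SE 0.36, adjusted p = 0.213). On day 10 *Foxo3* passed narrowly, as 1 of 9 members, against 3.10% of all genes on that day. That call was lost with DESeq2 size factors (adjusted p = 0.0526), with no filter on low counts (0.0907) and without the WT library of day 7 (0.0523), the WT library of day 14 (0.135) or the *Il21r*-/- library of day 14 (0.0821), while the log2 fold change stayed between −1.10 and −1.08 in these fits. In the same fit none of the 9 passed on day 7, when 1.07% of all genes did, or on day 14, when 3.28% did. The genotype difference of *Foxo3* changed by −0.04 per day on the log2 scale (95% confidence interval −0.19 to 0.12), and no gene of the 11005, 0%, passed the edgeR quasi-likelihood test of such a change. At an unadjusted p under 0.05, 118 genes passed it and none of the 9 members, and with day as a block 31 genes passed after adjustment.

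The sequence upstream of *Foxo3* is shown because it is the member whose mRNA differed between the genotypes. It is the stretch of the 250 bases before the RefSeq start that lies outside every exon of the GENCODE annotation, 190 bases on the minus strand at chr10:42276756-42276945 of GRCm38, 5′ to 3′:

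Foxo3: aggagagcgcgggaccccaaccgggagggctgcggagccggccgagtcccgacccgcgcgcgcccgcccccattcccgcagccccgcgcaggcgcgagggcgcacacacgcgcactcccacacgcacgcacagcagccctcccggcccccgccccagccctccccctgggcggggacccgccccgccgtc

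The whole 250 bases had a GC content of 76.4%, above that of 97.0% of the RefSeq promoter windows of GRCm38.p6, where the median was 52.4%. The 2 motifs searched for on both strands were a forkhead motif, GTAAACA, which FOXO proteins can bind, and a STAT motif, TTCNNNGAA, the form bound by STAT3, the main STAT downstream of the IL-21 receptor. Over windows from 250 bases before to 50 bases after a start, the forkhead letters stood in 3.65% and the STAT letters in 8.30% of 32851 RefSeq windows. No window of *Foxo3* held either of them. Among the 9 members, a window of *Akt1* held the forkhead letters and a window of *Akt2* the STAT letters. The windows at other RefSeq starts of these genes did not. The lists of pathway genes described below had windows for 61 genes, of which 7 held the forkhead letters and 9 the STAT letters, where the share of all genes with a window was 4.05% and 9.55%. The matches of both members are shown with those of 2 FOXO target genes that differed between the genotypes, *Bcl2l11* and *Btg1*. *Sesn1*, a further FOXO target gene that differed, held the forkhead letters after its start and is not shown. The motif is in capitals with 20 bases on either side.

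Akt1 (forkhead, chr12:112675019-112675065, minus strand, starting 161 bases before the start): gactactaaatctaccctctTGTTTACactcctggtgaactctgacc
Akt2 (STAT, chr7:27591372-27591420, plus strand, starting 160 bases before the start): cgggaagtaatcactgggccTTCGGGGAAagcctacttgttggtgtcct
Bcl2l11 (forkhead, chr2:128125791-128125837, plus strand, starting 227 bases before the start): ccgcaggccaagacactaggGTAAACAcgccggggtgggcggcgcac
Btg1 (forkhead, chr10:96616777-96616823, plus strand, starting 204 bases before the start): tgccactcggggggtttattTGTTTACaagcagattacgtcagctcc

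These matches describe letters in a window and were not tested as binding sites.

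*Foxo1* (Entrez 56458, chromosome 3, 52268337 to 52350109) is the FOXO factor of the GC and was the most abundant of its family. It had 164, 148 and 128 CPM in WT and 147, 172 and 138 CPM in *Il21r*-/- on days 7, 10 and 14. WT was higher on day 7 and *Il21r*-/- on days 10 and 14, and the ranges overlapped. The log2 fold change over 3 days was −0.06 with a 95% confidence interval of −0.32 to 0.19 (adjusted p = 0.794, edgeR's quasi-likelihood test), and its sign turned without the *Il21r*-/- library of day 10 (0.03). Per kilobase of exon, *Foxo1* had 26.9 ± 2.93 CPM (SD, n = 6), *Foxo4* had 2.18 ± 0.40 and *Foxo3* had 1.69 ± 0.59, and *Foxo1* lay above both in every library. In WT *Foxo4* lay above *Foxo3* in all 3 libraries, with 2.14, 2.34 and 2.24 against 1.52, 1.10 and 1.005 CPM per kilobase on days 7, 10 and 14. In *Il21r*-/- the ranges overlapped, with 2.03, 2.77 and 1.56 for *Foxo4* against 2.31, 2.36 and 1.86 for *Foxo3*. *Foxo6* was below the expression limit, with 3 to 19 reads in a library. *Foxo4* differed by 0.08 (95% confidence interval −0.40 to 0.56) between the genotypes. The exons of *Foxo1* share 674 bases, 7.78% of the GENCODE exon length, with *Gm20402* on the opposite strand, and since the counts are from a kit that does not mark strand, reads from that stretch cannot be assigned to one of the genes.

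*Foxp1* (Entrez 108655, chromosome 6, 98925342 to 99522746), a forkhead factor known to act against the GC program, had 42.9, 37.9 and 34.8 CPM in WT and 53.6, 61.8 and 38.7 CPM in *Il21r*-/-. It was higher in *Il21r*-/- on each day, but the *Il21r*-/- library of day 14 lay below the WT library of day 7. The log2 fold change over 3 days was −0.41 (SE 0.14, adjusted p = 0.129), and with day as a block it was −0.40 (SE 0.10, adjusted p = 0.00531). Without the *Il21r*-/- library of day 10 the difference was −0.26 (adjusted p = 0.0923, linear day term). Its relative *Foxp4* had 5.18 ± 1.11 CPM per kilobase beside 6.01 ± 1.41 for *Foxp1* (SD, n = 6). *Foxp1* was the higher in 1 of 3 WT and in 3 of 3 *Il21r*-/- libraries, and *Foxp2* and *Foxp3* had at most 3 reads in a library.

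*Pik3cd* (Entrez 18707, chromosome 4, 149649168 to 149702566) encodes p110δ, the catalytic PI3K subunit characteristic of lymphocytes. It had 200, 249 and 202 CPM in WT and 135, 187 and 139 CPM in *Il21r*-/-. All 3 WT libraries lay above all 3 *Il21r*-/- libraries, as for 8.33% of the genes tested, and both genotypes were highest on day 10. The level in WT was 1.41-fold that in *Il21r*-/- over 3 days (log2 fold change 0.50, SE 0.15, 95% confidence interval 0.15 to 0.84), which did not pass after adjustment (adjusted p = 0.1003). With day as a block, *Pik3cd* was higher in WT by 0.51 (SE 0.08, adjusted p = 1.29e-05), the smallest adjusted p of the 9 members in that fit. It also passed with the linear day term when the *Il21r*-/- library of day 10 was left out (0.67, adjusted p = 0.00104). On single days the difference was 0.57, 0.41 and 0.54 on days 7, 10 and 14 with SE of 0.29 each, and none passed.

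*Pik3r1* (Entrez 18708, chromosome 13, 101680761 to 101768217) encodes p85α, the regulatory subunit that stabilises and restrains the catalytic subunits. It had 41.0, 34.9 and 35.2 CPM in WT and 41.5, 44.1 and 37.4 CPM in *Il21r*-/-, ranges that overlapped. The values were higher in *Il21r*-/- on each day, and the log2 fold change of −0.15 (95% confidence interval −0.39 to 0.10) passed neither test (adjusted p = 0.474, and 0.301 with day as a block).

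The other subunits were read beside these. *Pik3r3*, which encodes the regulatory subunit p55γ, had 2.35, 1.79 and 2.25 CPM in WT and 3.80, 5.79 and 4.58 CPM in *Il21r*-/-, so all 3 *Il21r*-/- libraries lay above WT. It was 2.22-fold higher in *Il21r*-/- (log2 fold change −1.15, SE 0.23, adjusted p = 0.0237) from 44 to 152 reads per library, and it was the only one of the 8 PI3K subunits tested that passed. *Pik3cg*, the catalytic subunit linked mainly to G protein-coupled receptors, had 210, 150 and 93.5 CPM in WT and 150, 136 and 67.0 CPM in *Il21r*-/-. It fell by 0.17 per day on the log2 scale (SE 0.02, adjusted p = 0.00779), and its genotype difference of 0.36 passed only with day as a block (adjusted p = 0.124, and 0.00168 with the block). The catalytic subunits that most cells use, *Pik3ca* and *Pik3cb*, differed by 0.13 (95% confidence interval −0.12 to 0.38) and 0.31 (−0.15 to 0.77) and were not called. Per kilobase of exon, *Pik3cd* had 34.3 ± 7.96 CPM, *Pik3cg* 19.4 ± 7.17, *Pik3ca* 6.11 ± 0.51 and *Pik3cb* 1.19 ± 0.36 (SD, n = 6). *Pik3cd* lay above *Pik3cg* in each of the 6 libraries, although its lowest value, 25.0, was within the range of *Pik3cg*, 9.64 to 30.2.

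*Pik3ip1* (Entrez 216505, chromosome 11, 3319241 to 3342971) encodes a membrane protein that inhibits PI3K. It had 2.42, 1.42 and 1.31 CPM in WT and 3.14, 3.77 and 2.21 CPM in *Il21r*-/-, from 28 to 99 reads. It was higher in *Il21r*-/- on each day, though the *Il21r*-/- library of day 14 lay below the WT library of day 7. The level was 1.80-fold higher in *Il21r*-/- (log2 fold change −0.84, SE 0.25), a difference near that of *Foxo3* with a wider error, which did not pass with a linear day term (adjusted p = 0.0879) and passed with day as a block (−0.83, SE 0.24, adjusted p = 0.0124). *Pik3ip1* was the largest difference among the 9 lipid phosphatases and PI3K inhibitors listed, none of which was called over 3 days.

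*Inpp5d* (Entrez 16331, chromosome 1, 87620312 to 87720510) encodes SHIP-1, the blood cell phosphatase that converts the PI3K product. It had 293, 348 and 287 CPM in WT and 259, 348 and 246 CPM in *Il21r*-/-. The genotypes had like values on day 10 and their ranges overlapped, and the difference was 0.12 (95% confidence interval −0.21 to 0.46, adjusted p = 0.687). Per kilobase of exon, *Inpp5d* had 60.1 ± 8.79 CPM (SD, n = 6), from 49.8 in the lowest library to 70.5 in the highest.

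**Figure D2:**
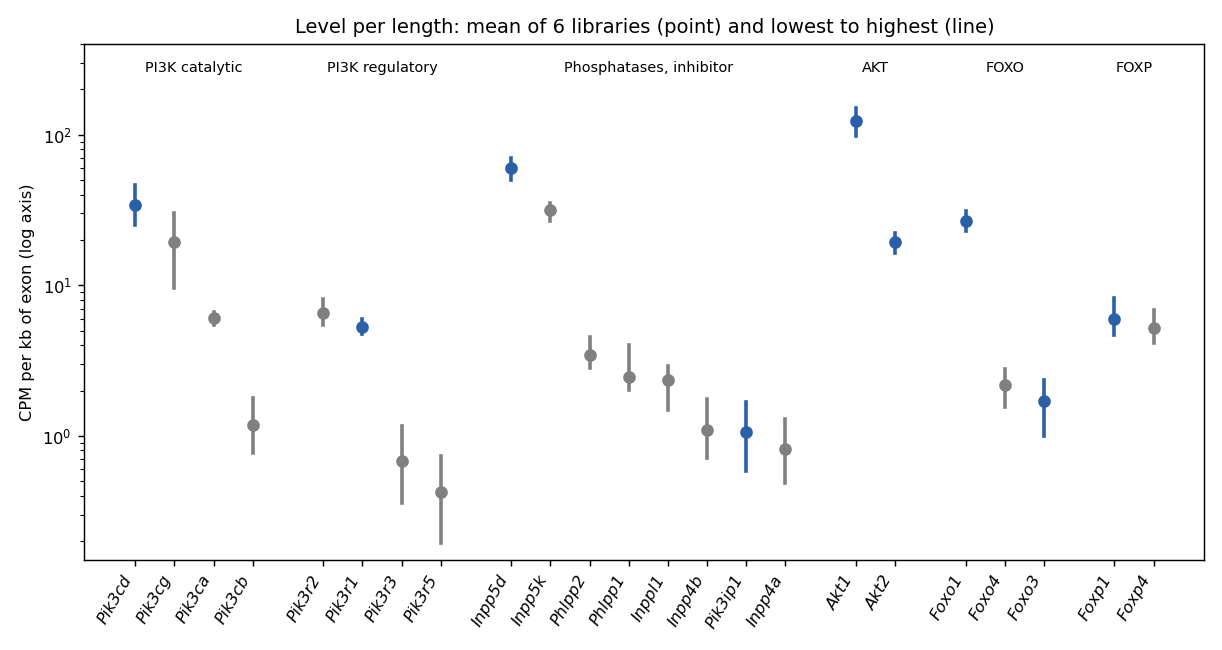
The levels of PI3K, phosphatase, AKT, FOXO and FOXP genes above the expression limit are plotted in CPM per kilobase of exon on a log axis, as the mean of the 6 libraries (point) and the lowest to the highest library (line), with the 9 members in blue. *Akt1* lay highest at 124, and *Foxo3* and *Pik3ip1* were the lowest members at 1.69 and 1.06.

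*Akt1* (Entrez 11651, chromosome 12, 112653821 to 112674884) encodes the most widely expressed AKT kinase. It had 369, 403 and 331 CPM in WT and 293, 338 and 263 CPM in *Il21r*-/-. WT was higher on each day, and the groups overlapped only in that the *Il21r*-/- library of day 10 lay above the WT library of day 14. The level in WT was 1.24-fold that in *Il21r*-/- (log2 fold change 0.30, SE 0.12, adjusted p = 0.174), and with day as a block the difference of 0.31 passed (SE 0.07, adjusted p = 0.00230). Like *Pik3cd*, it passed with a linear day term when the *Il21r*-/- library of day 10 was left out (0.40, adjusted p = 0.0110). The summed level of DZ markers was higher in WT, as *Akt1* and *Pik3cd* were, and its part in their differences was not tested.

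*Akt2* (Entrez 11652, chromosome 7, 27591552 to 27640826), the form known for its part in insulin signaling, had 70.9, 63.1 and 52.9 CPM in WT and 72.4, 62.3 and 56.6 CPM in *Il21r*-/-. The values of a day were close and each later day had a lower value in both genotypes, and the genotype difference was −0.04 (95% confidence interval −0.25 to 0.17, adjusted p = 0.862). Per kilobase of exon *Akt1* had 124 ± 18.8 CPM and *Akt2* 19.4 ± 2.36 CPM (SD, n = 6), and their libraries did not overlap.

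**Figure D3:**
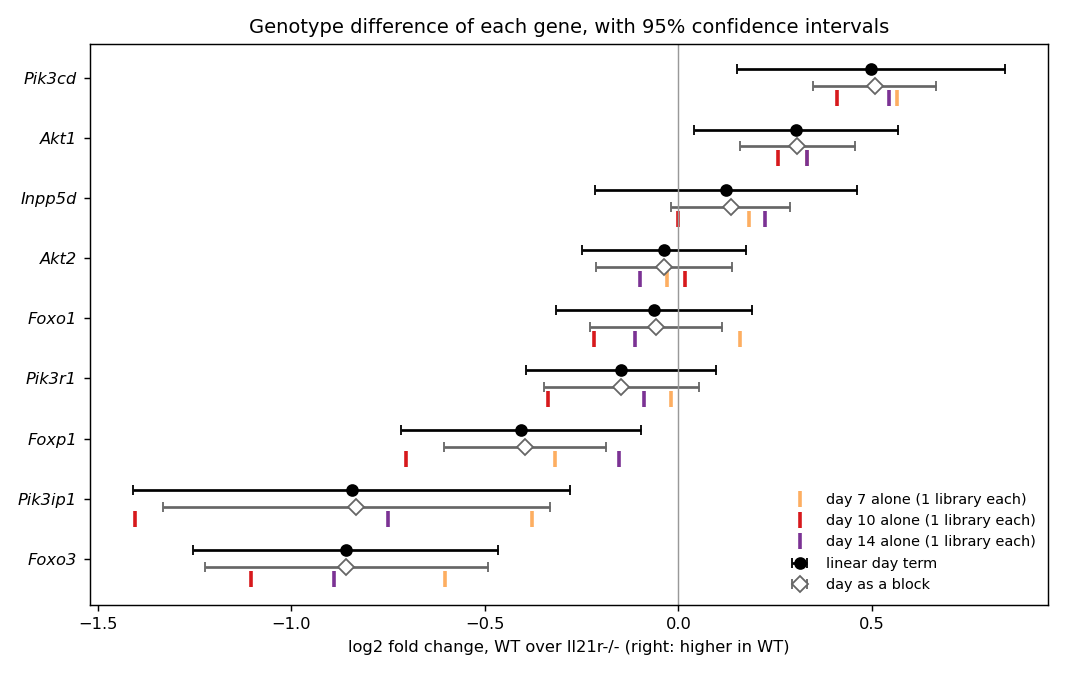
For each of the 9 genes, the log2 fold change of WT over *Il21r*-/- is plotted (horizontal axis, right means higher in WT) with its 95% confidence interval, from the fit with a linear day term (filled circle) and with day as a block (open diamond), and the differences of single days (colored ticks). The day ticks of *Pik3cd* and *Akt1* lay to the right of 0, and those of *Foxp1*, *Pik3ip1* and *Foxo3* to the left. The interval of *Pik3cd* narrowed from 0.15 to 0.84 to 0.35 to 0.67 with the block.

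Over both genotypes, the fitted slope with day was negative for all 9 members, from −0.10 per day on the log2 scale for *Pik3ip1* to −0.003 for *Pik3cd*, but none passed the test for a straight line, which 4.43% of all genes did. The nearest was *Akt2*, at −0.06 per day or −3.74% (SE 0.02, adjusted p = 0.0909). A straight line does not describe *Pik3cd*, *Akt1* or *Inpp5d*, which had their highest value on day 10 in WT and on day 10 in *Il21r*-/-. When day was fitted as a factor, 5 of 9 members passed the test of any difference between days, against 36.1% of all genes: *Pik3cd* (adjusted p = 0.00231), *Inpp5d* (0.00235), *Akt2* (0.0155), *Akt1* (0.0169) and *Foxp1* (0.0195, edgeR's quasi-likelihood test). Day was sampled by 2 libraries each, 1 per genotype, and day cannot be told apart from the handling of the libraries of that day, which was not described.

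Direction was shared across days by 7 of the 9 members, the exceptions being *Foxo1* and *Akt2*. That is 77.8%, against 53.3% of all genes tested. Among the 7, the log2 fold change of *Inpp5d* on day 10 was 8.47e-05 and that of *Pik3r1* on day 7 was −0.019. Such signs do not set the genotypes apart on those days. The median log2 fold change of the 9 over 3 days was −0.06 and that of all genes −0.01. Read by role, the values of the AKT kinase *Akt1* and the catalytic subunit *Pik3cd* were higher in WT, and those of the inhibitor *Pik3ip1* and the transcription factors *Foxo3* and *Foxp1* were higher in *Il21r*-/-. Among these genes *Foxo3* alone passed with a linear day term, while all of them passed with day as a block. The grouping by role was not tested. The differences of *Foxo1*, *Pik3r1*, *Inpp5d* and *Akt2* were between −0.15 and 0.12, with intervals that reached from −0.39 to 0.46.

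The rest of the pathway was read from 7 lists with 78 distinct genes, of which 69 were tested. The lists were chosen with earlier results of these data known. Over 3 days 11 of the 69 were called, 15.9%, with 1 higher in WT and 10 in *Il21r*-/-. Most of the 11 were in the list of known FOXO target genes. Of all genes 5.92% were called, with 154 higher in WT and 497 in *Il21r*-/-. With day as a block 23 were called, 33.3%, with 7 higher in WT and 16 in *Il21r*-/-, beside 22.9% of all genes, of which 1027 were higher in WT and 1492 in *Il21r*-/-. By the straight line 7 of the 69 changed with day and all 7 fell, beside 4.43% of all genes, of which 370 of 488 fell, and these calls were lost without the WT library of day 7.

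**Figure D4:**
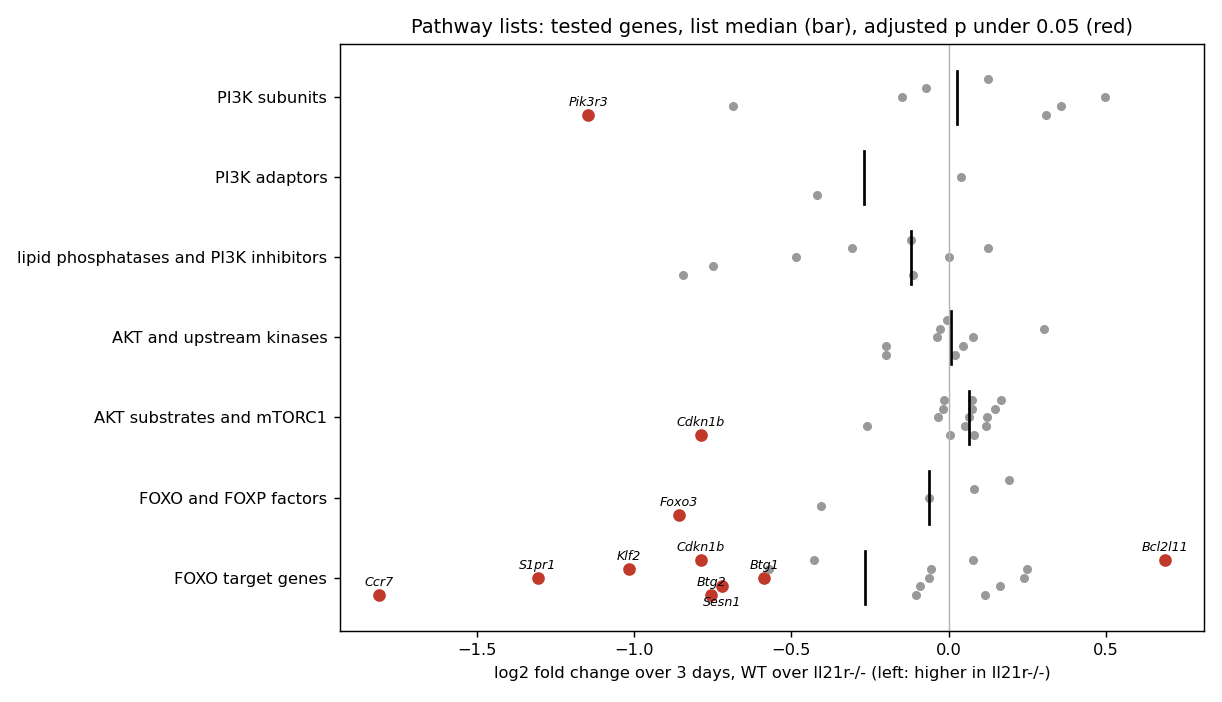
Tested genes of the 7 lists, except some that are not reported by name, are points at their log2 fold change over 3 days (horizontal axis, left means higher in *Il21r*-/-), with the list median over all tested genes as a bar and genes with adjusted p under 0.05 in red and named. *Cdkn1b* is in 2 lists, and of the 8 red FOXO target genes shown 7 lie to the left of 0.

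In the fit with a linear day term, 9 of the 11 called genes were in the list of known FOXO target genes, and with day as a block 11 of the 23. Over 3 days with the linear term, of its 20 tested members 8 were higher in *Il21r*-/-, 1 was higher in WT and 11 did not pass, and the median was −0.27. *Il7r*, *Rag1* and *Rag2* were below the expression limit. *Klf2*, a factor that keeps lymphocytes quiescent and recirculating, had 17.9, 11.1 and 8.38 CPM in WT and 38.8, 23.7 and 15.01 CPM in *Il21r*-/- (log2 fold change −1.02, SE 0.13, adjusted p = 0.00386). It also fell with day, by 0.18 per day on the log2 scale (adjusted p = 0.00880).

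The homing and egress receptors *Ccr7* and *S1pr1* differed by more than *Klf2*. *Ccr7*, the chemokine receptor that draws B cells towards the T cell area, had 3.26, 1.59 and 2.11 CPM in WT and 10.3, 8.50 and 5.78 CPM in *Il21r*-/- (log2 fold change −1.81, SE 0.23, adjusted p = 0.00322). *S1pr1*, the egress receptor, had 17.8, 14.6 and 9.79 CPM in WT and 48.6, 35.0 and 22.6 CPM in *Il21r*-/- (−1.31, SE 0.11, adjusted p = 0.000784). In both genes all *Il21r*-/- libraries lay above all WT libraries. *S1pr1* is also a marker of B cells outside the GC, whose summed level was higher in *Il21r*-/- on each day. The part of such cells in these differences was not tested.

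The growth-restraining targets differed by less. *Cdkn1b*, the cell cycle inhibitor p27, which AKT also phosphorylates, had 17.0, 12.1 and 10.2 CPM in WT and 26.7, 21.1 and 19.4 CPM in *Il21r*-/- (−0.79, SE 0.13, adjusted p = 0.0107). *Sesn1*, a sestrin that restrains mTORC1, had 29.1, 27.3 and 31.2 CPM in WT and 52.2, 43.8 and 48.5 CPM in *Il21r*-/- (−0.72, SE 0.12, adjusted p = 0.00974). *Btg1* and *Btg2*, which restrain proliferation, differed by −0.59 (SE 0.10, adjusted p = 0.0117) and −0.76 (SE 0.16, adjusted p = 0.0275). *Btg1* ranged from 288 to 423 CPM in WT and from 467 to 607 CPM in *Il21r*-/- without overlap, whereas the ranges of *Btg2*, 94.8 to 223 and 205 to 274 CPM, overlapped.

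*Bcl2l11*, which encodes the pro-apoptotic protein BIM, went the other way. It had 47.1, 36.0 and 28.4 CPM in WT and 23.0, 24.5 and 20.4 CPM in *Il21r*-/-, so all 3 WT libraries lay above *Il21r*-/- (0.69, SE 0.13, adjusted p = 0.0195). *Cited2*, a transcriptional coregulator, did not differ detectably between the genotypes (0.16, 95% confidence interval −0.05 to 0.37) and fell by 0.09 per day on the log2 scale (adjusted p = 0.0183). The summed level of LZ markers was higher in *Il21r*-/- beside all of these target genes, and that of DZ markers was higher in WT, as *Bcl2l11* was. The part of either in these differences was not tested.

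Leaving out 1 library in turn, *Klf2*, *Ccr7* and *S1pr1* passed in each of the 6 fits. The other calls described here kept their direction and rested on single libraries. Without WT day 14, *Bcl2l11*, *Cdkn1b*, *Sesn1*, *Btg1*, *Btg2* and *Pik3r3* did not pass (adjusted p from 0.0685 for *Sesn1* to 0.252 for *Btg2*). Without *Il21r*-/- day 14, *Cdkn1b*, *Sesn1*, *Btg1*, *Btg2* and *Pik3r3* did not pass (0.0539 for *Sesn1* to 0.124 for *Btg2*), and without WT day 10 *Btg1*, *Btg2* and *Pik3r3* did not (0.0586 for *Btg1* to 0.0753 for *Pik3r3*). Without WT day 7 *Sesn1* (0.0543) and *Bcl2l11* (0.0815) did not pass, and without *Il21r*-/- day 7 *Btg1* (0.0627) and *Bcl2l11* (0.0653) did not.

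**Figure D5:**
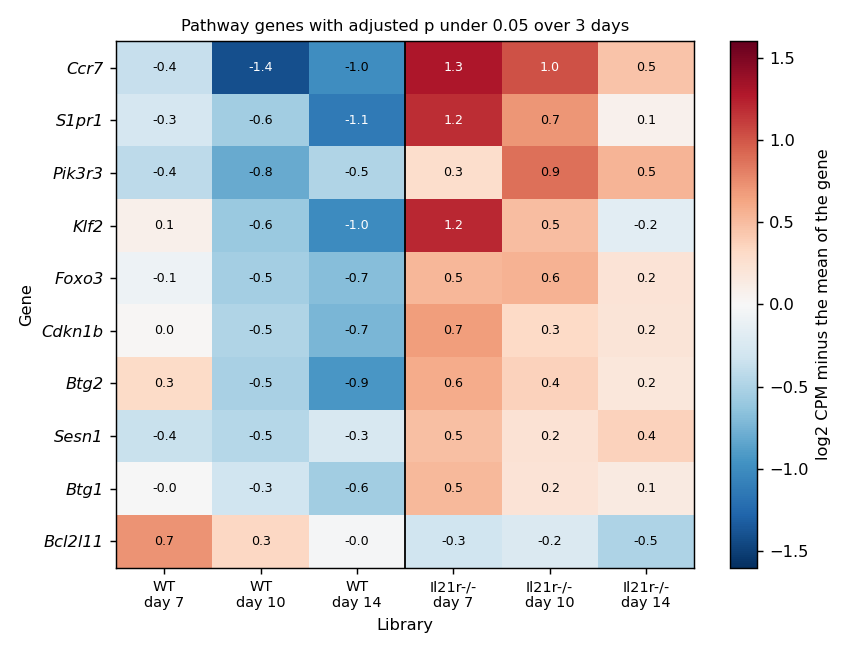
Log2 CPM minus the mean of the gene is shown by color and number for 10 pathway genes with adjusted p under 0.05 over 3 days (rows) in the 6 libraries (columns, WT to the left of the line). *Ccr7* ran from −1.4 in WT on day 10 to 1.3 in *Il21r*-/- on day 7, and *Bcl2l11* is the only row with its higher values in WT.

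Outside the FOXO targets, *Pik3r3* and *Foxo3* were the other genes called with a linear day term. With day as a block, 22.9% of all genes were called. In that fit the other lists held calls for 4 of 8 PI3K subunits (2 higher in WT), 1 of 3 adaptors and 2 of 9 phosphatases and inhibitors. They also held 2 of 10 AKT and upstream kinases (both higher in WT), 2 of 15 AKT substrates and mTORC1 genes, *Cdkn1b* among them, and 2 of 5 FOXO and FOXP factors. With the linear day term, among 10 AKT and upstream kinases none was called over 3 days, and *Sgk3* fell with day, by 0.09 per day on the log2 scale (adjusted p = 0.0291). Of 15 AKT substrates and mTORC1 genes, *Cdkn1b* alone was called, and 10 had positive values with a median of 0.07. None of the 3 PI3K adaptors tested was called, and the largest difference was that of *Gab3*, −0.42 (95% confidence interval −0.98 to 0.14). Among 5 FOXO and FOXP factors tested, *Foxo3* alone was called.

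The genes whose levels followed *Foxo1* and *Foxo3* most closely over the 6 libraries were found by Pearson's r of log2 CPM against the other 11004 genes tested. For *Foxo1* they were *Znfx1*, *Cds2* and *Tob2*, each with r of 0.993. For *Foxo3* they were *Wdr25* (0.998), *Pdcd4* (0.997) and *Asb2* (0.997). With 6 libraries that share 2 genotypes and 3 days, and so many genes compared, values this high describe the closest patterns only.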

How the data were processed

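RNA-seq was performed on 6 libraries of sorted mouse GC B cells, grouped by the genotype and day in the labels. Alignment to mm10 was done by the authors with Rsubread. They counted the single-end reads on inbuilt RefSeq genes with featureCounts, added up technical replicates and deposited raw whole-number counts per gene (CASAVA 1.8.2 is also named in the submitters' processing notes). The kit does not mark strand. Strand and multi-mapping settings are not given in the sources used here. The counts of the single libraries and the table of all libraries were identical for 6 of 6 libraries.

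Symbols came from a RefSeq table of GRCm38.p6 for 25275 of 27179 Entrez identifiers and from GENCODE M21 for 18, and 1886 had none. CPM used TMM-scaled library sizes. Tests covered 11005 genes, after removal of genes with an average log2 CPM under 0, Ig V genes, *Xist* and Y-linked genes. edgeR 4.0.16 in R 4.3.3 fitted genotype and a straight line in day (common dispersion 0.017, with 3 residual degrees of freedom). Single days were tested with likelihood ratio tests and a mean per day, and genotype by day with 2 residual degrees of freedom. P-values were adjusted by the method of Benjamini and Hochberg over all genes tested. Standard errors came from the information matrix of the fit. They were scaled by the quasi-likelihood dispersion, except those of single days, which were not scaled. The scripts were tested on simulated data. The libraries of a day deviated together from their genotype means (r of 0.640, 0.413 and 0.645 on days 7, 10 and 14 over 11005 genes), so day as a block pairs them. Levels per length divide CPM by the exon length in the deposited table. Promoter windows came from RefSeq, GRCm38.p6, and exon overlaps from GENCODE M21. Alternatives were DESeq2 1.42.0 (its size factors and its Wald test), other filters, day as a factor and leaving out each library. Beside the 9 members, genes were named if a pathway gene passed any test, had the largest difference of its list or is an isoform of a member. The members, lists and rules were chosen with earlier results of these data known. Some genes of the lists are not reported here by name.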

Additional observations from a re-analysis of the deposited data

How the results depend on the processing

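The limits are those of 6 libraries with 1 per genotype and day. The count of genes called over 3 days was 651, and it was 670 with DESeq2 size factors, 572 with at least 10 counts in every library, 951 with DESeq2's Wald test, 991 without a filter on low counts and 2519 with day as a block, which pairs the libraries. The count for day was 488, against 869 without a filter, 870 with DESeq2 and 3969 with day as a factor. With the linear day term kept, 722 genes were called on day 10 instead of 341. The block gave 31 calls for genotype by day instead of 0. Leaving out 1 library gave 132 (without WT day 14) to 2165 (without *Il21r*-/- day 10) calls over 3 days, 104 to 220 on day 7, 267 to 418 on day 10, 341 to 704 on day 14, 0 (without WT day 7) to 2177 (without *Il21r*-/- day 10) for day and 0 to 12 for genotype by day. The causes were not tested. Over 3 days *Foxo3* was the member called in the fits with DESeq2 size factors and with both other filters, and DESeq2's Wald test also called *Pik3cd*. Without 1 library the number of members called was 0 in 4 fits, 1 (*Foxo3*) without WT day 7 and 3 (*Foxo3*, *Pik3cd* and *Akt1*) without *Il21r*-/- day 10. Signs turned only in differences near 0 that were not called with a straight line. Over the fits that left out 1 library, *Foxo1* over 3 days ran from −0.164 to 0.0296 (positive without *Il21r*-/- day 10), *Akt2* from −0.0591 to 0.00456 and *Foxo4* from −0.139 to 0.322 (both turned without *Il21r*-/- day 14). The slope per day ran from −0.0361 to 0.0150 for *Inpp5d* (positive without *Il21r*-/- day 14) and from −0.0281 to 0.0217 for *Pik3cd* (positive without *Il21r*-/- day 10, WT day 14 or *Il21r*-/- day 14). With day as a factor, day 14 minus day 7 per day was 0.0033 for *Pik3cd*.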
